A study of Mus musculus with 6 samples.

Results

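The genes described here are solute carriers, membrane proteins that move ions, metals, phosphate, sugars, vitamins, nucleosides and nucleotide sugars across cell membranes. They were taken by name: every row of the deposited table with a symbol beginning Slc, without the families of amino acid, neurotransmitter, peptide, monocarboxylate, mitochondrial, fatty acid, sodium-calcium (Slc8a) and organic anion (Slco) carriers and without Slc2a1, Slc2a4, Slc11a2, Slc30a1, Slc37a4, Slc39a14 and Slc40a1. This gave 227 rows of 25927, of which the authors had tested 109 and marked 118 as not tested. The rows were chosen by symbol, and the set was drawn up with the FPKM values and calls of both genotypes in view, so the differences below are a description and carry no test over the set. By their names, 5 of the 227 are not carriers themselves: the scaffold genes Slc9a3r1 and Slc9a3r2, the adaptor gene Slc4a1ap, the opposite-strand transcript Slc13a2os and the pseudogene Slc22a13b-ps.

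RNA came from gastrocnemius, a calf muscle of mostly fast fibres, of C57BL/6J mice aged 8 weeks. The 3 wild-type (WT) libraries serve as controls for 3 libraries from mice with a knock-out of MLL4SET, restricted to muscle, which the labels name MLL4SET-MKO. MLL4 is a histone H3 lysine 4 methyltransferase encoded by Kmt2d, and SET is its catalytic domain. The sources used here do not name the promoter that drives the deletion in muscle. Each value is an FPKM, a fragment count scaled to transcript length and to the fragments mapped, which the authors gave once per group, so values of single mice are not shown and no spread between them could be computed. In whole muscle, fewer cells of a type and less RNA per cell cannot be told apart.

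Solute carriers fall into families that mostly share a substrate class. Sodium-coupled carriers use the gradient kept by the sodium pump, exchangers trade an ion for another, and facilitators let a solute run down its own gradient. In muscle such carriers set the supply of phosphate, choline and glucose, clear adenosine, hold cell chloride and pH, and keep zinc, copper and magnesium in their compartments.

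A row was called when its q-value in the authors' deposited table was under 0.05. Kmt2d itself stood at 8.77 FPKM in WT and 5.65 FPKM in MLL4SET-MKO. Of 8 fibre markers, 7 were tested and summed to 45557 FPKM in WT and 41558 FPKM in MLL4SET-MKO, while the estimate of Ckm had failed. Of the 7, the myosin light chain gene Mylpf was called lower (10773 to 6959 FPKM) and none was called higher. Markers of slow fibres differed between the groups: all 8 were called lower, and their sum was 1299 FPKM in WT and 432 FPKM in MLL4SET-MKO. Of 10 macrophage markers, 5 were called higher and none lower, and 1 (Fcgr1) was untested. Their sum was 99.4 FPKM in WT and 158 FPKM in MLL4SET-MKO. Over all 13347 tested rows, 7.41% were called lower and 4.44% higher. No endothelial, fibroblast, smooth muscle, Schwann cell, adipocyte or erythroid marker was called in the authors' Cuffdiff-style table, and 1 of the 35 tested rows for these markers had an unadjusted p under 0.05. None of them passed on a stricter reading, in which the authors' test statistic stands for a normal deviate (normal deviate reading below). What part slow fibres and macrophages had in the carrier values was not tested.

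Carriers that were lower in MLL4SET-MKO outnumbered those that were higher. Of the 109 tested rows, 14 were called lower. On the scale of log2(FPKM + 1), the organic cation exporter Slc47a1, the choline transporter-like gene Slc44a2, the phosphate carrier Slc20a1 and the nucleoside transporter Slc29a1 fell most. Another 4 were called higher, led on the same scale by the glucose transporter Slc2a3 and the sodium-potassium-chloride cotransporter Slc12a2. The called share was 16.5% of tested carriers, beside 11.8% of all 13347 tested rows. By direction, 12.8% of carriers were called lower beside 7.41% of all rows, and 3.67% higher beside 4.44%. Nothing is read from these shares, because the contrast was known when the set was formed. These shares of all rows apply to each class and list count below, where they are not always printed again. Nothing is read from those counts either.

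Most carriers differed little. Among the 99 rows with a mean of at least 1 FPKM, called measured below, the median change was -0.03 on the scale of log2((MLL4SET-MKO FPKM + 1)/(WT FPKM + 1)), and it was -0.03 over all 11271 measured rows. Changes smaller than 0.2 in either direction were seen in 65.7% of measured carriers and in 65.0% of all measured rows. The spread ran from -1.21 (Slc47a1) to 0.998 (Slc2a3). The normal deviate reading called 5 carriers, Slc47a1, Slc44a2, Slc29a1, Slc24a2 and Slc2a3, so 13 calls were lost, and it called 3.11% of all rows. With ratios centred on the median of all measured rows, the split was 7 higher and 12 lower, beside 6 and 14 with the p-values formed again in the same way but without centring.

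**Figure D1:**
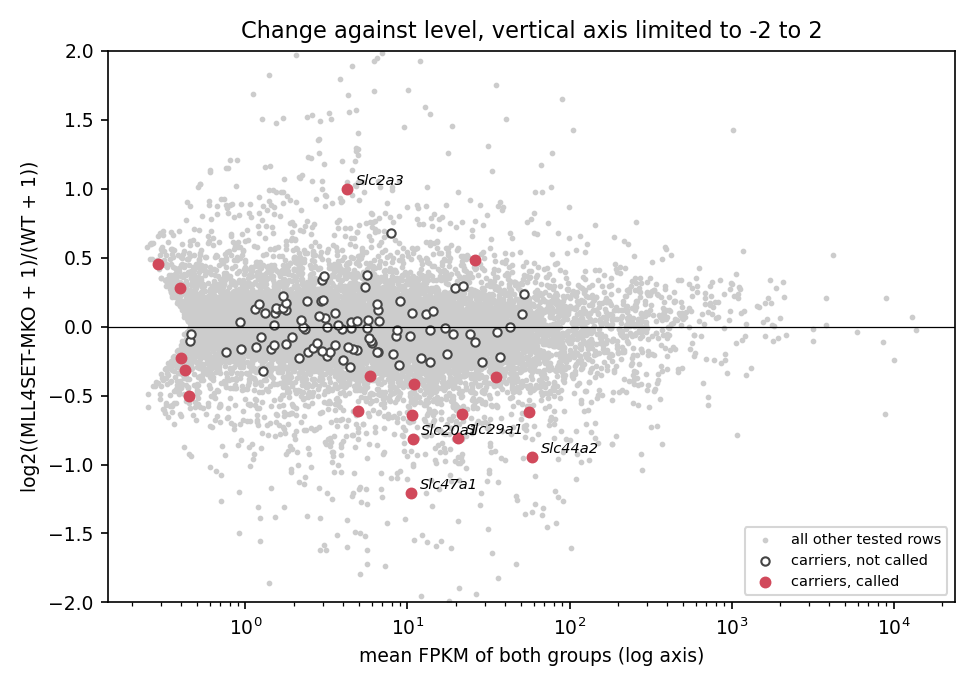
Each point is a tested row, placed by its mean FPKM over both groups (log axis) and its log2 change with 1 FPKM added. Grey points are all other tested rows, open circles carriers not called and red points carriers called, and 28 grey rows lie beyond the vertical axis of -2 to 2. Called carriers of higher level sit mostly below 0, down to -1.21 for Slc47a1.

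On the scale of log2(FPKM + 1), the largest decrease was that of 1 exporter of organic cations. Slc47a1, which encodes a proton-coupled exporter of organic cations (chromosome 11, 61343400 to 61378080, minus strand, protein-coding), stood at 15.1 FPKM in WT and at 5.97 FPKM in MLL4SET-MKO. That is 2.53-fold lower, a log2 ratio of -1.34 (95% interval -1.62 to -1.06; q = 0.000903, authors' deposited table). Its paralog Slc47a2 was not tested. Slc22a3, a low-affinity transporter of monoamines and other organic cations, was lower as well, at 0.701 FPKM in WT and 0.199 FPKM in MLL4SET-MKO (log2 ratio -1.82, interval -2.51 to -1.12). Both values of Slc22a3 are under 1 FPKM, its change on the scale of log2(FPKM + 1) was -0.50, and it is named after its values were seen. The 4 measured Slc22a rows all changed by less than 0.2 on that scale, 2 higher and 2 lower. The carnitine transporter Slc22a5, the Slc22a row of highest WT level, stood at 7.05 FPKM in WT and 6.08 FPKM in MLL4SET-MKO and was not called (q = 0.44).

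Choline carriers were led by Slc44a2, the carrier of highest WT level in the whole set. This gene (chromosome 9, 21320719 to 21355028, plus strand, protein-coding) encodes a choline transporter-like protein and stood at 77.8 FPKM in WT and 39.8 FPKM in MLL4SET-MKO. Its log2 ratio of -0.97 had an interval of -1.21 to -0.72 (q = 0.000903, authors' deposited table). It made up 85.4% of the summed Slc44a FPKM in WT and 78.0% in MLL4SET-MKO, and the family sum was 91.1 FPKM in WT and 51.0 FPKM in MLL4SET-MKO. Its paralog Slc44a1, a general choline uptake carrier, had a log2 ratio of -0.25 (interval -0.52 to 0.02) and was not called. The difference between these paralogs was not tested. Of 6 tested genes that use choline for phospholipids and related products, none was called in the authors' Cuffdiff-style table, 1 had an unadjusted p under 0.05 and none passed on the normal deviate reading (median change -0.14). The 1 with that p was a row shared by Chkb and Cpt1b, with an interval of -0.56 to -0.05 for its log2 ratio. This row is counted again among the genes of carnitine use below.

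Both tested sodium-phosphate carriers fell. Slc20a2 (chromosome 8, 22462614 to 22569616, plus strand, protein-coding) stood at 26.7 FPKM in WT and 16.9 FPKM in MLL4SET-MKO, a log2 ratio of -0.67 (interval -0.98 to -0.36). Slc20a1 (chromosome 2, 129197276 to 129211612, plus strand, protein-coding) stood at 14.01 FPKM in WT and 7.52 FPKM in MLL4SET-MKO, a log2 ratio of -0.90 (interval -1.22 to -0.57). Together they summed to 40.8 FPKM in WT and 24.4 FPKM in MLL4SET-MKO, 59.8% of the WT level. The kidney and gut type phosphate carriers of the Slc34a family were untested and listed at 0 FPKM in both groups. Slc20a2 shares its locus with Smim19, which stood at 30.6 FPKM in WT and 28.9 FPKM in MLL4SET-MKO and was not called, and exons of Slc20a1 overlap those of 9830144P21Rik and Gm4430 on the other strand. Neither phosphate carrier passed on the normal deviate reading (q = 0.058 for Slc20a1 and 0.28 for Slc20a2 after Benjamini-Hochberg adjustment). The phosphate exporter gene Xpr1 and the heme oxygenase genes Hmox1 and Hmox2 were tested. Of these 3 rows, none was called, none had an unadjusted p under 0.05 and none passed on that reading.

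Among nucleoside carriers, the leading one fell. Slc29a1, the equilibrative carrier that takes up adenosine and other nucleosides (chromosome 17, 45585200 to 45599603, minus strand, protein-coding), stood at 26.3 FPKM in WT and 14.6 FPKM in MLL4SET-MKO. Its log2 ratio of -0.85 had an interval of -1.12 to -0.58 (q = 0.000903, authors' deposited table). It held 83.1% of Slc29a FPKM in WT and 73.9% in MLL4SET-MKO. The other 3 tested nucleoside carriers were not called: Slc29a2 had a log2 ratio of -0.17 (interval -0.53 to 0.19), the lysosomal Slc29a3 one of 0.20 (-0.15 to 0.55) and the sodium-coupled Slc28a2 one of -0.01 (-0.30 to 0.27). Of 12 tested genes of adenosine and nucleoside metabolism, 1 was called lower and none higher. The 9 measured ones had a median change of -0.19. The called gene was Adk, adenosine kinase, which phosphorylates adenosine inside the cell and fell from 50.9 to 36.9 FPKM. Exons of Slc29a1 overlap Gm17080 on the other strand.

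**Figure D2:**
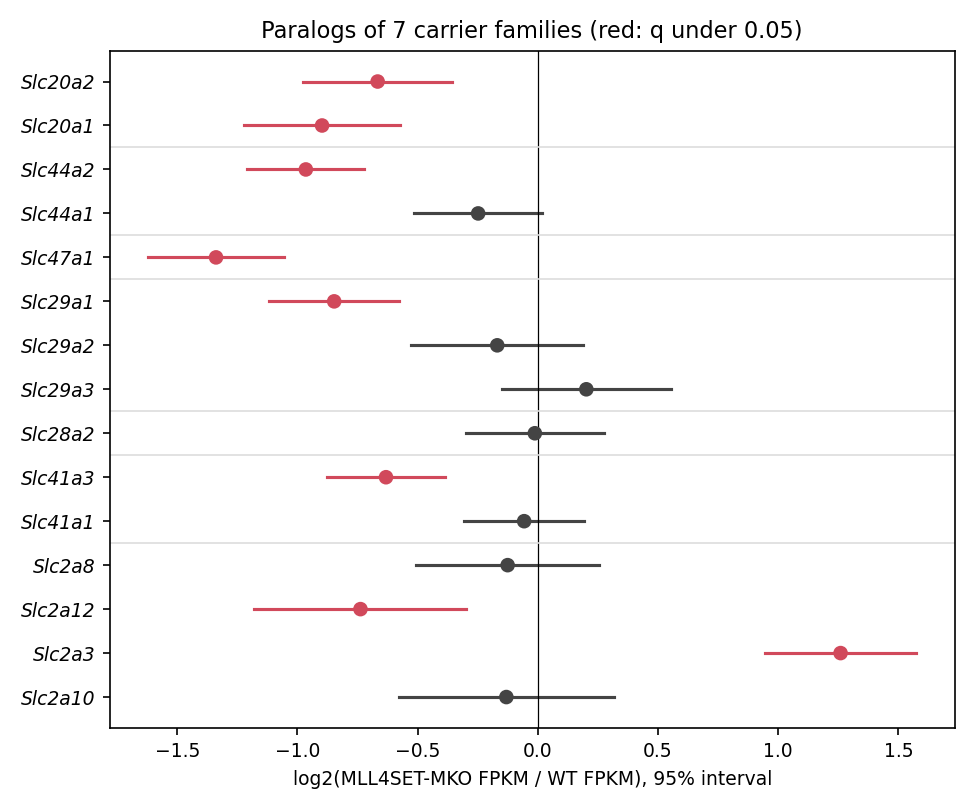
Each point is the log2 ratio of MLL4SET-MKO to WT FPKM of a measured carrier of the Slc20a, Slc44a, Slc47a, Slc29a, Slc28a, Slc41a or Slc2a family, with its 95% interval worked back from the authors' test. Families are separated by lines and ordered by WT level within each, and red marks a q under 0.05. Both Slc20a genes lie left of 0, as do Slc44a2, Slc47a1, Slc29a1 and Slc41a3, while Slc2a3 at 1.26 lies right of it.

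The start regions of the carriers that fell can be read from RefSeq (build GRCm38.p6), which gives windows of 250 bases before and 50 after an annotated start. Of 18 called carriers, 14 had at least 1 window. The windows below belong to 4 carriers that fell and to Slc24a2, which rose. They are printed 5' to 3' on the strand of the gene, in lower case with each E-box in capitals, the letters CANNTG that basic helix-loop-helix factors such as the myogenic regulators and the clock factors can bind. They are Slc44a2 (chr9:21320469-21320768, plus strand), Slc20a1 (chr2:129198523-129198822, plus strand), Slc29a1 (chr17:45599569-45599868, minus strand), Slc35e4 (chr11:3914615-3914914, minus strand) and Slc24a2 (chr4:87230491-87230790, minus strand). Where a gene had several windows, the one nearest the outer edge of its deposited locus is shown.
Slc44a2: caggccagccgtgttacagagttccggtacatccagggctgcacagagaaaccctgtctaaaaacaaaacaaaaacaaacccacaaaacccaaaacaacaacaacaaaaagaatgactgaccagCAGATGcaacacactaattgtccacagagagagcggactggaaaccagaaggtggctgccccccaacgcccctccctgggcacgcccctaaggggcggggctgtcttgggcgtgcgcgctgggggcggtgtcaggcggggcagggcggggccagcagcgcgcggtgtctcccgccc
Slc20a1: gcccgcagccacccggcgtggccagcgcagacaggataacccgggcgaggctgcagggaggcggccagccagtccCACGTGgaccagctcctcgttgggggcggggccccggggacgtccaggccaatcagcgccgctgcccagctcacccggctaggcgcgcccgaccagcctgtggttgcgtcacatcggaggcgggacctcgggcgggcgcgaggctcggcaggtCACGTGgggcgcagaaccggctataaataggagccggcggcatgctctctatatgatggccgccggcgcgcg
Slc29a1: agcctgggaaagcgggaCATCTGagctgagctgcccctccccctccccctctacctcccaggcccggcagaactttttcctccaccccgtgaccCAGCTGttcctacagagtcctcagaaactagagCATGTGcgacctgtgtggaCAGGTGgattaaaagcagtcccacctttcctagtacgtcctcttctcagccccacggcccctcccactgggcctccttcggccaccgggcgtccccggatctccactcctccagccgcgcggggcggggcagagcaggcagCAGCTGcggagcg
Slc35e4: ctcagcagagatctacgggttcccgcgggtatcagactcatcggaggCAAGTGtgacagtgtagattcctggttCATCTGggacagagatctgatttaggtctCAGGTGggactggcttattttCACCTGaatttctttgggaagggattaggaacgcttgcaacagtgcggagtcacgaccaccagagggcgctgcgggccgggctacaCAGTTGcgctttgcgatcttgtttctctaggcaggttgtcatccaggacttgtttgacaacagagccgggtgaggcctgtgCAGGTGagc
Slc24a2: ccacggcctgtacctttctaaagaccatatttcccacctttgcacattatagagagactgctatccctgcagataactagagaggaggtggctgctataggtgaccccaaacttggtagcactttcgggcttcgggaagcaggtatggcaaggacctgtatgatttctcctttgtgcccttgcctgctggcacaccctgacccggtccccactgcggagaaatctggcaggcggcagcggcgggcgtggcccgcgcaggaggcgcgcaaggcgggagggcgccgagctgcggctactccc

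The Slc20a1 window holds 2 E-boxes, both of the form CACGTG, the Slc29a1 window holds 5, the Slc35e4 window 6, the Slc44a2 window 1 and the printed Slc24a2 window none. The other Slc24a2 window holds 4, and the windows of Slc2a12, Slc35b1 and Slc9a8, which fell, hold none. An E-box occurred in 18 of 21 windows of carriers called lower (85.7%), in 1 of 3 windows of carriers called higher, in 68.1% of 116 windows of tested carriers and in 72.3% of all 32851 windows. Several windows belong to the same gene, with 8 for Slc29a1 alone, all of which hold an E-box, so windows are not independent. The 21 windows of carriers called lower come from 12 genes, and of these genes only Slc2a12, Slc35b1 and Slc9a8 lack an E-box. CACGTG, a subset of CANNTG, was found in 14.3% of windows of carriers called lower, 12.1% of tested carriers and 7.15% of all windows. The MEF2 letters, CTA and TAG with 4 bases of any kind between them, occurred in 14.3%, 5.17% and 3.69% of the same groups. The metal response element core TGCNCNC, searched on both strands as were the others, occurred in 66.7%, 69.0% and 51.0%. TGACGTCA, the cyclic AMP element, was in none of the windows of carriers called lower and in 1.79% of all windows. Windows of tested carriers had a median of 61.8% G and C beside 52.7% over all windows. All windows include those of genes untested in this muscle, and no comparison with windows of all tested genes was made. The same limit holds for the motif shares. A match of letters describes a window and shows no binding.

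Of 2 tested magnesium carriers, both among the rows of at least 20 FPKM in WT, 1 fell. Slc41a3, a magnesium carrier of mitochondria, stood at 68.7 FPKM in WT and 44.3 FPKM in MLL4SET-MKO, a log2 ratio of -0.63 (interval -0.88 to -0.39, q = 0.000903 in the authors' deposited table). The plasma membrane carrier Slc41a1 stood at 24.7 FPKM in WT and 23.8 FPKM in MLL4SET-MKO and was not called (interval -0.31 to 0.19). Of 8 tested genes of magnesium handling outside the Slc families, 1 was called lower and none higher, with a median change of -0.09. The called gene, Cnnm4 of the cyclin M family of magnesium transport proteins, fell from 4.58 to 2.06 FPKM.

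Cation-chloride cotransporters of both directions of chloride transport were measured. Slc12a2, which brings sodium, potassium and chloride into the cell (chromosome 18, 57878678 to 57946821, plus strand, protein-coding), rose from 21.7 to 30.7 FPKM. The log2 ratio was 0.50 (interval 0.25 to 0.74), and it made up 50.5% of Slc12a FPKM in WT and 61.3% in MLL4SET-MKO. Slc12a4, a potassium-chloride exporter, fell from 6.72 to 5.03 FPKM (log2 ratio -0.42, interval -0.71 to -0.13, q = 0.039 in the authors' deposited table). The related exporter Slc12a7 was not called and had a log2 ratio of -0.21. Of 7 tested kinases and adaptors that regulate this family, 1 was called lower and none higher, with a median change of -0.13, and the called gene was the kinase Wnk2, which fell from 26.5 to 17.5 FPKM. Neither Slc12a2 nor Slc12a4 passed on the normal deviate reading (q = 0.36 and 0.85 after Benjamini-Hochberg adjustment).

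The sodium pump, whose gradient drives these cotransporters, had 3 of 7 tested rows called lower and none higher. This share of 42.9% lower stood beside 7.41% of all tested rows, and the median change was -0.16. The subunit gene Atp1b2 fell from 150 to 69.1 FPKM and the row of the regulators Fxyd1 and Fxyd7 from 432 to 262 FPKM. Slc24a2, an exchanger of sodium for calcium and potassium known from neurons, was called higher at 0.0852 FPKM in WT and 0.489 FPKM in MLL4SET-MKO (log2 ratio 2.52, interval 1.95 to 3.09). Its mean of 0.287 FPKM was the lowest of all tested carriers, as was its WT value. The carrier of highest mean among those not tested was Slc41a2, at 0.385 FPKM. Slc24a3 and the mitochondrial sodium-lithium-calcium exchanger Slc8b1 were not called, with log2 ratios of -0.28 for each.

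Sugar carriers were called in both directions. Slc2a3, the high-affinity glucose transporter of neurons, platelets and white blood cells (chromosome 6, 122727809 to 122742745, minus strand, protein-coding), rose from 2.50 to 6.00 FPKM. That is 2.39-fold higher, a log2 ratio of 1.26 (interval 0.94 to 1.57; q = 0.000903, authors' deposited table). Slc2a12, another glucose transporter of muscle and fat, fell from 6.20 to 3.72 FPKM (log2 ratio -0.74, interval -1.18 to -0.30) at a locus shared with Tbpl1. The intracellular Slc2a8 and its relative Slc2a10 were not called, with log2 ratios of -0.13 for each. The Slc2a rows summed to 16.9 FPKM in WT and 17.3 FPKM in MLL4SET-MKO.

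Low-level sugar phosphate carriers of the Slc37a family also went opposite ways: Slc37a1 stood at 0.580 FPKM in WT and 0.271 FPKM in MLL4SET-MKO, and Slc37a2, known from macrophages, at 0.260 and 0.526 FPKM. They are named after their values were seen. The macrophage metal carrier Slc11a1 stood at 1.43 FPKM in WT and 1.66 FPKM in MLL4SET-MKO and was not called (q = 0.75). Its log2 ratio was 0.22 (interval -0.34 to 0.78). The summed macrophage markers above were higher in MLL4SET-MKO, and any link to the values of Slc37a2 or Slc11a1 was not tested. The row of highest level among sugar carriers, that of the inositol carrier Slc5a3, is shared with Mrps6 and stood at 19.6 FPKM in WT and 24.3 FPKM in MLL4SET-MKO (q = 0.42).

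**Figure D3:**
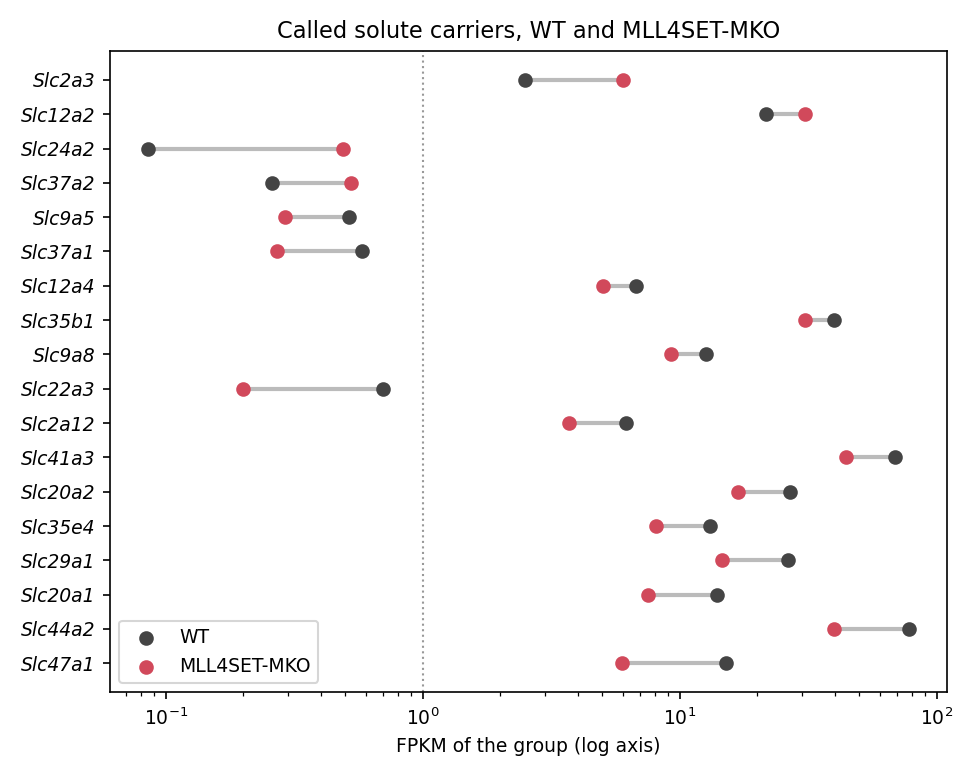
Group FPKM of the 18 called carriers on a log axis, WT in dark grey and MLL4SET-MKO in red, ordered by change, with a dotted line at 1 FPKM. The upper 4 rows are higher in MLL4SET-MKO and the lower 14 are lower. For 5 of the 18, Slc24a2, Slc37a2, Slc9a5, Slc37a1 and Slc22a3, both values lie under 1 FPKM.

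Of the 15 tested carriers of protons, bicarbonate and other anions, 2 were called lower and none higher. This share of 13.3% lower stood beside 7.41% of all tested rows, and the 14 measured ones had a median change of -0.07. Slc9a8, a sodium-proton exchanger of endosomes and the Golgi, fell from 12.6 to 9.25 FPKM (log2 ratio -0.45, interval -0.71 to -0.19). Slc9a5, at 0.514 FPKM in WT and 0.290 FPKM in MLL4SET-MKO, lay just inside the threshold, with q = 0.0498 in the authors' deposited table, and is named after its value was seen. The sodium-bicarbonate cotransporter Slc4a4 stood at 4.80 and 6.08 FPKM and lay just outside the threshold (q = 0.068). Slc9a2, the row of highest level in this class, stood at 18.9 and 16.3 FPKM (q = 0.34). Of 7 tested partners of the sodium-proton exchangers, none was called, none had an unadjusted p under 0.05 and none passed on the normal deviate reading.

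The carriers of nucleotide sugars and their relatives formed the class of lowest spread by median size of change, at 0.08 beside 0.14 over all measured rows. Of 23 tested rows, 2 were called lower (8.7%, beside 7.41% of all tested rows) and none higher. Slc35e4, a relative with no settled substrate, fell from 13.1 to 8.07 FPKM (log2 ratio -0.70, interval -0.98 to -0.42). Slc35b1, which exchanges ATP and ADP across the endoplasmic reticulum membrane, fell from 39.9 to 30.7 FPKM, with q = 0.046 in the authors' deposited table. With the ratios centred on all measured rows, Slc35b1 and Slc12a4 were no longer called (q = 0.085 and 0.068 after Benjamini-Hochberg adjustment). Slc35a4, at 35.9 FPKM in WT and 34.96 FPKM in MLL4SET-MKO, was not called, at a locus shared with Apbb3 and Sra1. Of 16 tested enzymes that make nucleotide sugars, 1 was called lower and none higher, and the 15 measured ones had a median change of -0.01. The called gene was Ugp2, which makes UDP-glucose and fell from 318 to 238 FPKM.

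None of the carriers of zinc, copper, heme and divalent metals in the Slc11a, Slc30a, Slc31a, Slc39a and Slc48a families that are described here was called, a class that leaves out magnesium and the genes named at the start. Of its 19 tested rows, 2 had an unadjusted p under 0.05 in the authors' Cuffdiff-style table and none passed on the normal deviate reading, and the median change was -0.02. Zinc carriers that load the cytosol were led by Slc39a7 of the endoplasmic reticulum, in a row shared with H2-Ke6, at 47.7 FPKM in WT and 56.4 FPKM in MLL4SET-MKO. Among the Slc30a zinc carriers described here, Slc30a9 was highest, at 43.1 FPKM in WT and 43.0 FPKM in MLL4SET-MKO. Slc30a2, a vesicular zinc carrier at a locus shared with Extl1, had the largest change of the class and stood at 5.82 and 9.91 FPKM, with q = 0.0518 in the authors' deposited table and an interval of 0.25 to 1.29 for its log2 ratio of 0.77. Of 4 zinc binding and sensing genes, 1 was called higher and none lower (median change 0.22). That gene was the metallothionein Mt3, which changed by 1.71 from 2.36 FPKM in WT.

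The copper importer Slc31a1 stood at 8.68 FPKM in WT and 8.53 FPKM in MLL4SET-MKO. Of 10 tested rows for copper handling genes, with Ccs in more than 1 row, 1 was called higher and 2 lower. The called share was 30%, beside 11.8% of all tested rows, and the 9 measured rows had a median change of 0.07. The copper chaperone gene Atox1 rose from 33.4 to 46.5 FPKM, and the reductase gene Steap3 fell from 17.0 to 12.3 FPKM. The heme carrier Slc48a1 stood at 31.3 FPKM in WT and 26.1 FPKM in MLL4SET-MKO (q = 0.34), at a locus shared with Hdac7. Among the carriers described here, Slc48a1 was the sole tested one within 5 Mb of Kmt2d. Slc genes outside the set were not searched.

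Of 7 tested carriers of the Slc19a, Slc23a, Slc46a and Slc52a families, which hold carriers of thiamine, folate, ascorbate and riboflavin, none was called in the authors' Cuffdiff-style table, 2 had an unadjusted p under 0.05 and none passed on the normal deviate reading. The thiamine carrier Slc19a2 stood at 2.54 FPKM in WT and 3.55 FPKM in MLL4SET-MKO, with q = 0.056 in the authors' deposited table. The ascorbate carrier Slc23a2 stood at 5.21 and 4.54 FPKM, and the folate carrier Slc19a1 at 2.999 and 3.17 FPKM. Of 11 tested rows for enzymes that turn vitamins into cofactors, 1 was called higher and 1 lower. The median change of the 9 measured rows was -0.19. The called genes were the pantothenate kinases Pank1, from 4.18 to 5.72 FPKM, and Pank3, from 12.7 to 9.73 FPKM. Of 7 tested rows for genes of carnitine use, with Cpt1b in the row shared with Chkb, 1 was called higher and 1 lower. The 6 measured rows had a median change of 0.06. Aldh9a1 rose from 4.52 to 6.62 FPKM, and carnitine acetyltransferase, Crat, fell from 140 to 96.0 FPKM.

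**Figure D4:**
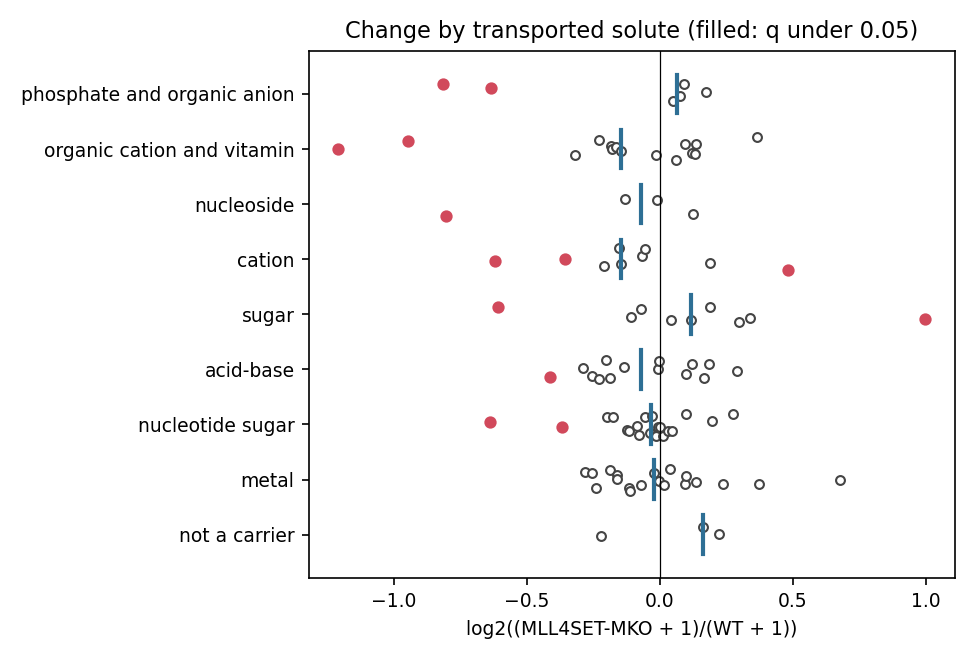
Change of each of the 99 measured rows, log2((MLL4SET-MKO FPKM + 1)/(WT FPKM + 1)), by the solute class of its family. Open circles were not called, red points were called and blue bars are class medians. The metal class has no called member and a median of -0.02, and the organic cation and vitamin class, with a median of -0.14, holds the largest decrease.

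By WT level, 14 tested rows reached at least 20 FPKM, 35 lay from 5 to under 20, 51 from 1 to under 5 and 9 under 1. Of the 14 highest, 5 were called lower, 1 higher and 8 were not called. The called share of all rows at that level was not computed, so nothing is read from this split. The 8 include the row of the bile acid carrier relative Slc10a3, shared with Ubl4a, at 49.2 FPKM in WT and 52.5 FPKM in MLL4SET-MKO (q = 0.77). They also include the scaffold gene Slc9a3r2, at 40.0 and 34.2 FPKM (q = 0.31). Standard errors of the log2 ratio, worked back from the authors' test, had a median of 0.19 for measured carriers with a mean under 5 FPKM and 0.13 for those at 20 FPKM or more. Of the 118 untested rows, 40 were listed at 0 in both groups.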

How the data were processed

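Messenger RNA was measured in 3 WT and 3 MLL4SET-MKO gastrocnemius libraries. TopHat2 2.0.14, Cufflinks 2.2.1 and the build mm10 are named in the submitters' processing notes, while the sources used here do not give the annotation, strand setting or scaling. Per the file headers the layout is that of Cuffdiff. The authors deposited 1 FPKM per group, a test statistic (used as a score), a p-value and a q-value for each row. Read depth is unknown. The libraries' labels call them biological replicates.

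From the deposited values, changes were computed as log2 with a pseudocount of 1 FPKM, which understates changes of low genes. Log2 ratios have no pseudocount. Median changes of classes and lists are over their measured rows, with a mean of at least 1 FPKM. The median ratio of each p-value's normal deviate to its test statistic was 1.73, which gave standard errors and 95% intervals that rest on the authors' model and not on single mice. The smallest q, 0.000903, is that of 739 rows, which q therefore cannot order. The 11 rows with failed estimates held no carrier. Calculations used Python 3.11.15, pandas 2.3.3 and SciPy 1.17.1 and were tested on simulated data.

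Members and lists were chosen with earlier results of these data known. Named carriers are the called ones of at least 1 FPKM in the higher group, up to 12 per direction, and the highest of each solute class. Up to 2 called genes of each list are named. Other carriers named were chosen after their values were seen. Values of some carriers that were not called are not reported here. Positions follow the deposited table (mm10) and are counted from 1, with strand and type from GENCODE M21. Locus sharing is stated because overlapping reads can be split between genes.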

Additional observations from a re-analysis of the deposited data

How the results depend on the processing

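No paired analysis was possible because the table gives 1 value per group, and for the same reason no replicate could be left out. Against 4 carriers called higher and 14 lower, taking the authors' test statistic for a normal deviate called 2 higher and 3 lower, and q under 0.01 called 3 higher and 9 lower. A mean of at least 1 FPKM left 2 higher and 11 lower, and a mean of at least 5 FPKM left 1 higher and 10 lower. Centring on the median ratio of measured rows (-0.04), also added after seeing the data, gave 7 higher and 12 lower. Centring needs p-values formed again from ratio and standard error, and that step alone gave 6 higher and 14 lower, adding Slc30a2 and Slc19a2, so centring itself added Slc4a4 and removed 2 lower calls. The median change ran from -0.07 (mean of at least 5 FPKM) to 0.00 (centred), against -0.03, and the sign of so small a median is not fixed. Of the 19 named rows, 2 were called higher and 11 lower, and the rest had no call to lose. Among these called rows, 9 lost their call on the normal deviate reading and 2 under centring. Leaving out rows with shared loci or several symbols left 4 higher and 10 lower.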
